A study of Mus musculus with 4 samples.

Results

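The genes described here encode potassium channels and the hyperpolarization-activated HCN channels, read here in prefrontal cortex from female mice. Their probe sets were chosen by gene name, with earlier results of these data known. Every probe set with a single gene name that begins with Kcn, or with Hcn and a digit, was taken, dim or bright. This gave 54 probe sets of 44 genes, out of 12422 probe sets in all, of which 10833 carried a single name. The control animals were FVB/N females and the other animals were females overexpressing the synaptic form of human acetylcholinesterase (AChE), which splits the transmitter acetylcholine. Each of the 4 arrays was hybridised with cortical RNA pooled from 4 mice, with 2 control pools and 2 transgenic pools. The sources used here give no transgene promoter, founder line or age, and no strain for the transgenic animals. Nor do they say that pools of 1 group held separate mice, so p-values cover the spread between these pools alone, which may be technical.

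Potassium channels let potassium leave the cell and so set the resting potential, end the action potential and space out repeated spikes. Voltage-gated channels open on depolarization, inward rectifiers and tandem-pore channels hold the membrane near rest, and calcium-activated channels couple calcium entry to hyperpolarization. HCN channels are close relatives that pass a mixed cation current on hyperpolarization. Acetylcholine is known to act on several of these channels in cortical neurons through muscarinic receptors, which close some of them and open others through G proteins.

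The promoters of the members that passed the test below are printed first, since these are the genes on which the comparison turns. RefSeq sequences (GRCm38.p6) were matched by name for 34 of the 44 genes, and for Kcnma1, Kcnd2, Kcnj4 and Kcnk1 among the 6 that passed. Kcna1 and Kcnj11 are named only. Each line gives the 250 bases before the annotated start, 5′ to 3′ on the strand of the gene, and capitals mark matches to the motifs searched. Kcnma1 lies at chr14:24004206-24004455 on the minus strand and Kcnd2 at chr6:21215096-21215345 on the plus strand, and both rose. Kcnj4 lies at chr15:79505242-79505491 on the minus strand and Kcnk1 at chr8:125994852-125995101 on the plus strand, and both fell.
Kcnma1: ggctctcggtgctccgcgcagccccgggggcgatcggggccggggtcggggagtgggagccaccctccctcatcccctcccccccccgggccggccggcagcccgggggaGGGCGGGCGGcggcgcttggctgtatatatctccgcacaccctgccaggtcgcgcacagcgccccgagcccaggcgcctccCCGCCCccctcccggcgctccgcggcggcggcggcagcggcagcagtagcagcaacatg
Kcnd2: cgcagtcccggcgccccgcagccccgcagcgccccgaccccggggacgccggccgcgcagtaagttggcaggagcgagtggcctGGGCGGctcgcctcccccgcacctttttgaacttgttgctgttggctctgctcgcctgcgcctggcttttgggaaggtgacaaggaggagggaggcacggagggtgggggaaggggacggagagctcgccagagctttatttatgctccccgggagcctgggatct
Kcnj4: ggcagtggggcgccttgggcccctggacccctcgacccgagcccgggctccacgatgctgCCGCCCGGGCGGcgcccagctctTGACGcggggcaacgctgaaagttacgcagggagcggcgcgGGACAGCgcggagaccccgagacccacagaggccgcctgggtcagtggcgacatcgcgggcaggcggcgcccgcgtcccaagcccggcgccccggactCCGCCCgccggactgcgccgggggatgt
Kcnk1: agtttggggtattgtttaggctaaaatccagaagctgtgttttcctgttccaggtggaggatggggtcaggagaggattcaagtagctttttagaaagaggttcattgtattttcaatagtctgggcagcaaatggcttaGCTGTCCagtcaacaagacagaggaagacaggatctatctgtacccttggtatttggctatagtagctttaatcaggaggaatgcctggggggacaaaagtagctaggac

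Both strands were searched for the GC box GGGCGG, which binds Sp1-type factors, for TGACG, a part of the cAMP response element, for the E-box CACGTG, for the TATA box TATAAA, and for TTCAGCACC and GGACAGC, the left and right parts of the site of the neuronal repressor REST. Overlapping matches were counted. The GC box occurred 3 times before Kcnma1, once before Kcnd2, 3 times before Kcnj4 and not before Kcnk1, so it was found beside genes of both directions. Across all 32851 promoter windows 32.7% held it, against 21 of 43 windows of the channel genes (48.8%). TGACG was found before Kcnj4 and not before the other 3, and 17.8% of all windows and 16.3% of channel windows held it. GGACAGC was found once each before Kcnj4 and Kcnk1, and 5.28% of all windows and 9.3% of channel windows held it. CACGTG (6.02% of all windows), TATAAA (12.4%) and TTCAGCACC (0.301%) were found before none of the 4. The windows differed in base composition, with 79.2% G and C before Kcnma1, 77.2% before Kcnj4, 68.8% before Kcnd2 and 44.4% before Kcnk1. The median was 52.4% over all windows and 60.4% over the channel windows, and the GC box share was not adjusted for this. These matches describe the letters only.

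The 4 arrays were close in overall level, with median intensities between 86.6 and 88.2. No scan or extraction batch is named in the labels, so a batch that coincides with the groups cannot be told apart from them. Nor do the labels give the array's design version for each pool, and a difference in version between the groups, which can change what single probe sets detect, cannot be told apart from the transgene either. Over the whole array 118 tested probe sets rose over 4-fold and 15 fell over 4-fold. Of the 97 named genes behind the 118 rises, 39 had tested probe sets outside the 118. There were 48 of these, of which 7 were called higher, with a median log2 change of 0.07, and probe sets that themselves rose over 4-fold are left out of that count. Kcna1 and Kcnma1, and the partner genes Kif5b and Sp1, are among these 118 and were each read by 1 probe set, so their folds hold for that probe set and are not shown for the transcript. Cortical projection neuron markers were present, and Tbr1 read between 1317.5 and 1817.7. Of 5 such markers Neurod2 rose and Camk2a fell, and their summed signal was 4430.0 and 4727.6 on the control arrays against 4428.3 and 4012.6. Of 8 interneuron markers Calb2 rose and Npy and Sst fell (sums 13513.6 and 13819.6 against 13335.7 and 12189.5). Of 7 astrocyte markers Aqp4 rose and S100b fell (7803.1 and 8211.5 against 7262.0 and 7917.4). Both red cell genes, Alas2 and Hba-a1, rose (2779.4 and 2396.4 against 8472.8 and 6945.1). Of 8 endothelial and mural markers, 5 of them tested, Flt1 rose (781.1 and 817.7 against 1049.8 and 978.8). Of 8 microglial markers Tyrobp fell (2771.7 and 2872.6 against 2522.2 and 2214.8). None of 6 oligodendrocyte (5 tested) or 4 striatal markers (3 tested) passed, with Cnp and Rgs9 at or under the floor on every array and not tested. Striatal markers summed to 2019.0 and 4230.3 against 4164.2 and 2772.7, so they differed between pools of the same group. Choroid plexus markers were dim, with sums between 93.5 and 137.1. The part of any of these in the channel values was not tested. In tissue RNA, fewer cells of a type and less RNA per cell cannot be told apart.

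The comparison of transgenic with control pools gave channel probe sets called in both directions. The rises at Kcna1 and Kcnma1 were large, and the rise at Kcnd2 and the 3 falls were moderate. The single probe sets of Kcna1 and Kcnma1 rose at least 25.8-fold and 20.8-fold, and 1 of the 2 Kcnd2 probe sets rose 1.95-fold. Kcnj4, Kcnj11 and Kcnk1 fell 1.88-fold, 1.76-fold and 1.59-fold. Of the 54 probe sets, 29 (of 25 genes) were bright enough to be tested, which required a mean log2 intensity above the 40th percentile, equal to an intensity of 49.4. Values under 19.675, the 25th percentile, were raised to that floor. Among the 29, 3 were higher at an adjusted p under 0.05 (10.3%, against 5.46% of all 7453 tested probe sets) and 3 were lower (10.3%, against 4.56%). The median log2 change of the 29 was -0.06, against -0.03 over all tested probe sets. The median absolute log2 change was 0.30 against 0.23. Of the tested members 5 had both transgenic pools above both control pools (17.2%, against 23.8% of all tested probe sets) and 10 had both below (34.5%, against 29.9%). In the other 14 the groups overlapped. For 24 of the 29 the mean of each group alone lay above the intensity limit. Among these 24, 2 were higher (8.33%) and 3 were lower (12.5%). The shares over all tested probe sets were not limited in this way. Kcna1 is not among these 24: it was tested through its transgenic signal, so it had to differ to be tested at all.

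**Figure D1:**
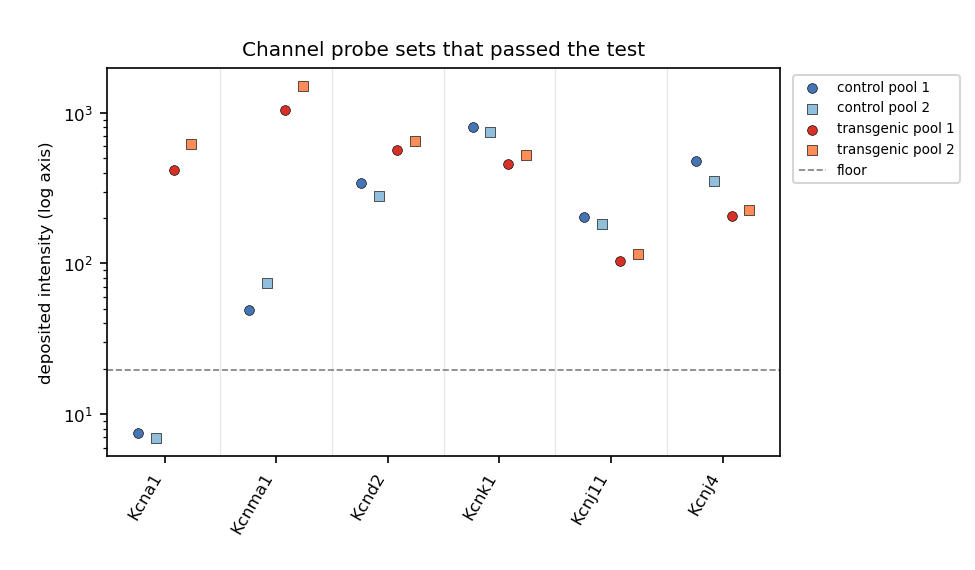
Deposited intensity (log axis) of the 6 channel probe sets that passed the test, with 1 point per array: blue for the 2 control pools, red and orange for the 2 transgenic pools, and a dashed line at the floor of 19.675. The transgenic points of Kcna1, Kcnma1 and Kcnd2 lie above the control points, and those of Kcnk1, Kcnj11 and Kcnj4 lie below them, with no overlap.

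Among the pore-forming voltage-gated subunits 2 of 11 tested probe sets rose (18.2%, against 5.46% of all tested probe sets) and 0 fell (against 4.56%). The rises include Kcna1, which was tested only through its transgenic signal. Each class holds few tested probe sets, so such shares are coarse. Kcna1 encodes the low-threshold axonal subunit whose loss causes seizures and ataxia. It read 7.5 and 6.9 in control cortex and 414.8 and 622.3 in transgenic cortex. Both control readings lay under the floor and both transgenic readings far above it. The rise at this 1 probe set was at least 25.8-fold (log2 change 4.69 ± 0.26 SE, limma adjusted p = 3.30e-06). Since both control arrays were set to the floor, the spread between control pools was 0 by construction, and with the floor at the 40th percentile the log2 change was 3.32. The array version of each group, not given, cannot be told apart from this change.

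Kcnd2 encodes the main subunit of the dendritic A-type current, which damps back-propagating spikes. At probe set 99339_r_at it read 343.0 and 278.8 in control cortex and 562.6 and 647.6 in transgenic cortex. The lower transgenic reading exceeded the higher control reading, and the mean rose from 311 ± 45.4 to 605 ± 60.1 (SD, n = 2 pools per group). The change was 1.95-fold (log2 0.96 ± 0.16 SE, limma adjusted p = 0.00495). Without transgenic replicate 2 the adjusted p was 0.0732. Another probe set of Kcnd2, 98364_at, read 40.1 and 60.3 in control cortex and 33.8 and 99.1 in transgenic cortex. There the transgenic readings spanned the control readings on both sides, with a log2 change of 0.24 ± 0.50 SE (adjusted p = 0.824).

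The other pore-forming subunits did not pass. Kcna3, a delayed rectifier also known from lymphocytes, read 55.2 and 47.6 in control cortex and 72.6 and 137.7 in transgenic cortex. Its groups did not overlap, but the transgenic pools differed by 0.92 on the log2 scale, about the size of the change itself (0.96 ± 0.35 SE, adjusted p = 0.122). Kcnc1, the fast-deactivating channel of fast-spiking interneurons, read 61.1 and 61.8 in control cortex and 45.9 and 38.4 in transgenic cortex. Both transgenic readings were lower (log2 change -0.55 ± 0.34 SE, adjusted p = 0.365). Parvalbumin (Pvalb), a marker of these interneurons, had a log2 change of 0.03 ± 0.13 SE (adjusted p = 0.917). In the same interneuron list Calb2 rose and Npy and Sst fell. The part of interneurons in the Kcnc1 readings was not tested. Kcnd3, an A-type relative of Kcnd2, varied most between pools, reading 92.5 and 23.2 in control cortex and 142.8 and 26.2 in transgenic cortex. The control pools differed by 1.995 and the transgenic pools by 2.45 on the log2 scale, and the change was 0.40 ± 0.79 SE (adjusted p = 0.809).

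Kcnh2, the ether-a-go-go related channel that repolarizes the heart, read 405.7 and 427.5 in control cortex and 463.9 and 345.6 in transgenic cortex. Its log2 change was -0.06 ± 0.17 SE (adjusted p = 0.883). The modifier subunits Kcns1 and Kcns2, which form no current alone, had changes of 0.19 ± 0.39 and -0.14 ± 0.25 SE. Kcna5 (102295_at) had 0.32 ± 0.36 SE and Kcnq1 (161796_r_at) 0.05 ± 0.22 SE. At these probe sets of the 4 genes and in Kcnh2 the readings of the groups overlapped. The dim Kcnq1 probe set 99322_at read 20.2 and 10.3 in control cortex and 29.3 and 23.8 in transgenic cortex. Both transgenic readings were higher there, near the floor, and it was not tested.

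The accessory subunits of voltage-gated channels gave 0 calls among 4 tested probe sets in limma (over all tested: 5.46% higher, 4.56% lower). Of the 4, 1 was at an unadjusted p under 0.05, as were 1811 of all 7453 tested probe sets. Their 4 log2 changes, 2 of them from Kcnab2, lay below 0, as did 54.2% of those of all tested probe sets. The beta subunits Kcnab1, Kcnab2 and Kcnab3 bind inside the cell to channels of the Kcna family and shape their inactivation and surface delivery. Kcnab3 read 161.2 and 178.0 in control cortex and 110.7 and 132.0 in transgenic cortex. Its groups did not overlap (log2 change -0.49 ± 0.20 SE, adjusted p = 0.178). Kcnab2 read 1376.4 and 1417.2 against 1030.9 and 1255.0 at 102892_at. At 162182_f_at it read 794.8 and 752.9 against 696.4 and 568.2. Both probe sets gave -0.30 on the log2 scale (SE 0.13 and 0.15, adjusted p = 0.210 and 0.248), with transgenic readings below control readings in each. Kcnab1 overlapped between groups at 102725_at (-0.05 ± 0.23 SE), and its change was 0.28 without control replicate 2 and 0.14 without transgenic replicate 1.

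**Figure D2:**
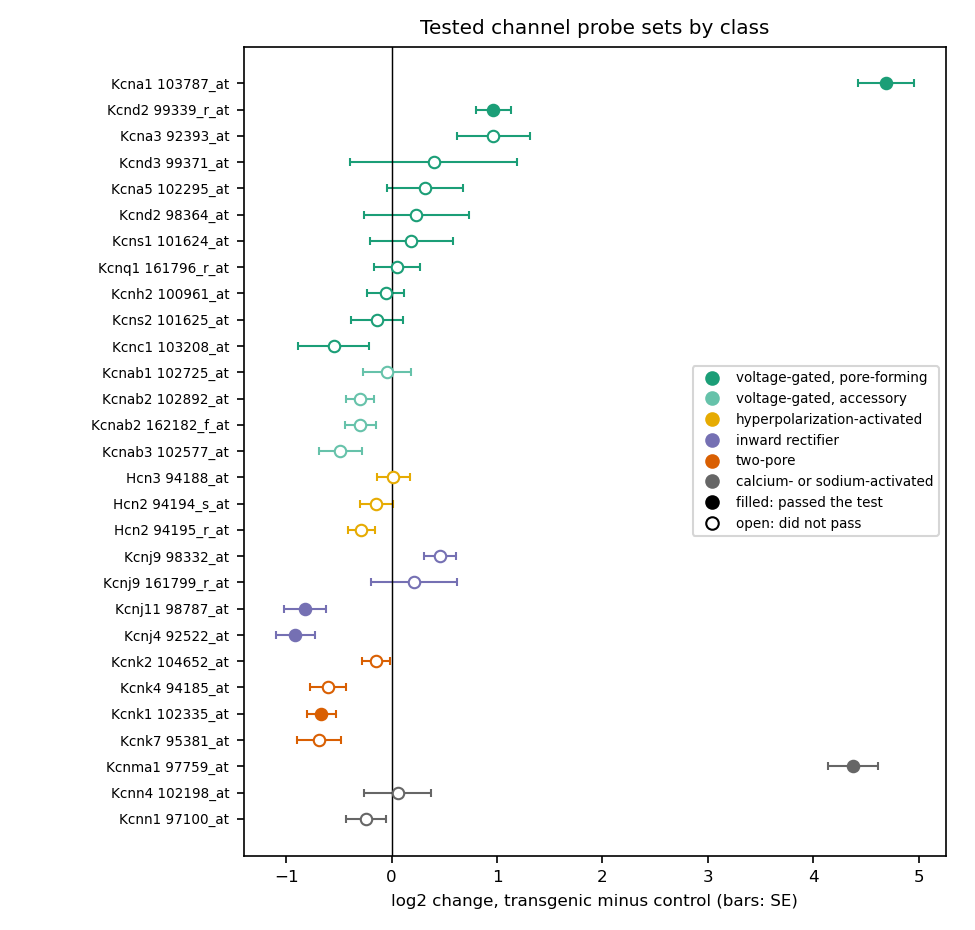
Log2 change (transgenic minus control, horizontal axis) with its SE for each of the 29 tested channel probe sets, coloured by class, with filled points for the 6 that passed and open points for the others. Kcna1 and Kcnma1 stand at 4.69 and 4.38, every other point lies between -0.91 and 0.96, and all 4 tandem-pore (two-pore in the key) and all 4 accessory points lie below 0.

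Among the calcium-activated channels 1 of 3 tested probe sets rose (33.3%, against 5.46% of all tested probe sets) and 0 fell (against 4.56%). Kcnma1 encodes the pore of the large-conductance BK channel, which opens with calcium and depolarization together and shortens the spike. It read 49.1 and 73.6 in control cortex and 1039.1 and 1504.9 in transgenic cortex. No control reading came near a transgenic one, and no array lay at the floor. The mean rose from 61.3 ± 17.3 to 1272 ± 329 (SD, n = 2 pools per group), a 20.8-fold change at its 1 probe set, to which the limit on array version applies as well (log2 4.38 ± 0.24 SE, limma adjusted p = 2.80e-06). Its accessory subunit gene Kcnmb1, known from smooth muscle, read between 2.8 and 5.9 on all arrays, under the floor.

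The small-conductance channel Kcnn1, a calcium-gated channel without voltage dependence, read 298.5 and 398.8 in control cortex and 319.2 and 266.9 in transgenic cortex. These readings overlapped (log2 change -0.24 ± 0.19 SE, adjusted p = 0.488). Kcnn4, the intermediate-conductance channel of blood cells, stayed between 51.7 and 58.6 on all arrays (0.06 ± 0.32 SE, adjusted p = 0.938). Beside it, the red cell gene Hba-a1 had a log2 change of 1.58 ± 0.13 SE, and the part of blood in the Kcnn4 readings was not tested. Kcnu1, a relative of Kcnma1 known from sperm, was under the intensity limit, with 12.5 and 40.6 against 49.0 and 52.3.

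Inward rectifiers gave 2 falls and 0 rises among 4 tested probe sets of 3 genes (over all tested: 5.46% higher, 4.56% lower). Both transgenic readings lay below both control readings in 2 of the 4 (29.9% of all tested probe sets). They lay above in 1 (23.8% of all), and in 1 the groups overlapped. Kcnj4 encodes a strong inward rectifier of forebrain neurons. It read 476.8 and 351.7 in control cortex and 207.0 and 228.0 in transgenic cortex. The transgenic pools lay close together and below both control pools, and the mean fell from 414 ± 88.5 to 217.5 ± 14.8 (SD, n = 2 pools per group). This was a 1.88-fold fall (log2 change -0.91 ± 0.19 SE, limma adjusted p = 0.0133). The adjusted p was 0.0588 without control replicate 1, 0.0973 and 0.0792 without transgenic replicate 1 or 2, and 0.0649 without the intensity trend in the variance.

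Kcnj11 forms the pore of the ATP-sensitive channel, which opens when cellular ATP falls and needs a sulfonylurea receptor, encoded by Abcc8 or Abcc9. It read 204.2 and 183.4 in control cortex and 104.1 and 115.5 in transgenic cortex. Both groups were tight and well apart, a 1.76-fold fall (log2 change -0.82 ± 0.20 SE, limma adjusted p = 0.0295). Leaving out any 1 pool lost the call, with adjusted p-values of 0.139 and 0.0510 without control replicate 1 or 2 and 0.110 and 0.0857 without transgenic replicate 1 or 2. Abcc8 at 103273_s_at had -0.46 ± 0.22 SE (adjusted p = 0.244). Kcnj8, the other ATP-sensitive pore, read between 6.5 and 20.2, and it and Abcc9 lay under the intensity limit.

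Kcnj9 belongs to the G protein-gated inward rectifiers, which open when muscarinic and other receptors release G protein beta-gamma subunits. At 98332_at it read 539.3 and 465.1 in control cortex and 742.6 and 638.3 in transgenic cortex. Both transgenic readings were higher, but the change did not pass (log2 0.46 ± 0.15 SE, adjusted p = 0.0890). The other probe set, 161799_r_at, read 42.3 and 53.5 against 77.8 and 38.9 and overlapped (0.21 ± 0.41 SE). The other G protein-gated subunits, Kcnj3, Kcnj5 and Kcnj6, were under the intensity limit at every probe set. Kcnj3, a common partner in such channels, read 68.3 and 33.6 in control cortex and 33.6 and 16.9 in transgenic cortex.

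Tandem-pore channels carry the background leak current. Of 4 tested probe sets, each of another gene, 1 fell and 0 rose (over all tested: 5.46% higher, 4.56% lower). Their 4 log2 changes lay below 0, against 54.2% of all tested probe sets. In 3 of the 4 both transgenic readings lay below both control readings, against 29.9% of all tested probe sets. Kcnk1 encodes a weakly conducting leak channel found in neurons and astrocytes. It read 808.1 and 746.0 in control cortex and 457.3 and 523.5 in transgenic cortex. The readings of each group lay close together and the groups were apart, with means of 777 ± 43.9 and 490 ± 46.8 (SD, n = 2 pools per group). The fall was 1.59-fold (log2 change -0.67 ± 0.14 SE, limma adjusted p = 0.0162). Its call was lost without transgenic replicate 1 (adjusted p = 0.0910) or when the variance model had no intensity trend (0.0843).

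Kcnk4, a channel opened by stretch and lipids, read 322.1 and 273.7 in control cortex and 188.0 and 203.1 in transgenic cortex. Its groups did not overlap, and it missed the threshold (log2 change -0.60 ± 0.17 SE, adjusted p = 0.0574). It passed with median scaling (0.0496) and with the filter at the 60th percentile (0.0434). Kcnk7, a relative for which no current of its own is known, read 187.2 and 155.8 against 108.1 and 103.6. Again both transgenic readings were lower (-0.69 ± 0.21 SE, adjusted p = 0.0693). Kcnk2, another stretch- and lipid-gated channel, read 853.4 and 997.9 against 804.5 and 861.2 and overlapped (-0.15 ± 0.14 SE, adjusted p = 0.557). The median of the 4 changes was -0.63, against -0.03 over all tested probe sets. Kcnk3, the acid-sensitive channel, read 5.3 and 3.6 in control cortex and 40.5 and 11.4 in transgenic cortex and was under the intensity limit.

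The HCN channels gave 0 calls among 3 tested probe sets in limma (over all tested: 5.46% higher, 4.56% lower). At an unadjusted p under 0.05 there were 0 as well, against 1811 of all 7453 tested probe sets. Hcn2, a main carrier of the hyperpolarization-activated current in forebrain, read 1222.3 and 1104.0 in control cortex and 1007.3 and 900.3 in transgenic cortex at 94195_r_at. There both transgenic readings were lower (log2 change -0.29 ± 0.13 SE, adjusted p = 0.211). At 94194_s_at it read 526.6 and 561.6 against 549.2 and 438.8 and overlapped (-0.15 ± 0.16 SE, adjusted p = 0.624). Both Hcn2 probe sets are annotated to 1 source sequence, and the change at 94194_s_at was 0.01 without transgenic replicate 2. Hcn3 read 454.3 and 457.6 against 516.4 and 411.0, with the control readings between the transgenic ones (0.01 ± 0.16 SE, adjusted p = 0.971).

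**Figure D3:**
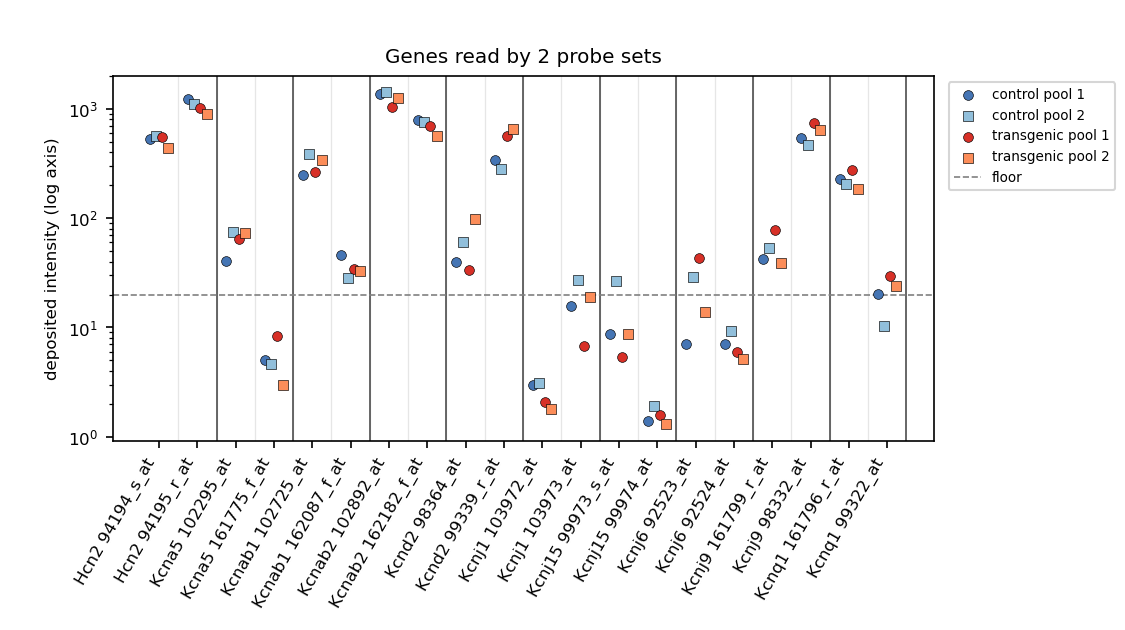
Deposited intensity (log axis) on each array for the 10 channel genes read by 2 probe sets, shown side by side, with blue for control pools, red and orange for transgenic pools and a dashed line at the floor. For Kcnd2 the transgenic points stand above the control points at 99339_r_at and mix with them at 98364_at, while both Kcnab2 probe sets show transgenic points below control points.

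Of the 44 genes, 10 were read by 2 probe sets, and in 4 of these (Hcn2, Kcnab2, Kcnd2 and Kcnj9) both were tested. Within each of the 4 genes both changes had the same sign, although that of Hcn2 94194_s_at turned without transgenic replicate 2 and that of Kcnd2 98364_at without control replicate 1. The Kcnd2 call rested on 99339_r_at. The 5 other called genes, Kcna1, Kcnma1, Kcnj4, Kcnj11 and Kcnk1, were each read by a single probe set, so no other probe set could be set beside them.

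Under the intensity limit lay 25 probe sets of 22 genes, and for 19 of the 44 genes no probe set was tested. Their readings ranged from 1.3 to 92.9. At 7 of them every array was at or under the floor: those of Kcnmb1, Kcnj2 and Kcnj5, and 1 each for Kcnj1, Kcnj6, Kcnj15 and Kcna5. Kcnj2 and Kcnj12 are strong inward rectifiers, and Kcnj12 read between 33.1 and 46.9. Kcnj1 and Kcnj15, known from kidney among other tissues, did not exceed 27.1 on any array. In 1 dim probe set both transgenic pools were above the floor and over 2-fold above both control pools (1.71% of all 4969 probe sets under the limit). It was that of Kcnh1, the ether-a-go-go channel of brain, with 9.5 and 10.6 in control cortex and 63.8 and 76.4 in transgenic cortex. In 1 other both were over 2-fold lower (1.33% of the 4969). That one, Kcne1l, is an X-linked accessory subunit and read 58.8 and 51.5 against 12.5 and 16.1. In the limma fit without the filter these 2 had adjusted p-values of 0.0822 and 0.0683. Those values add no support, since both probe sets were picked by the same readings. In each, 1 group lay under the floor on both arrays, so its spread was 0 by construction.

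**Figure D4:**
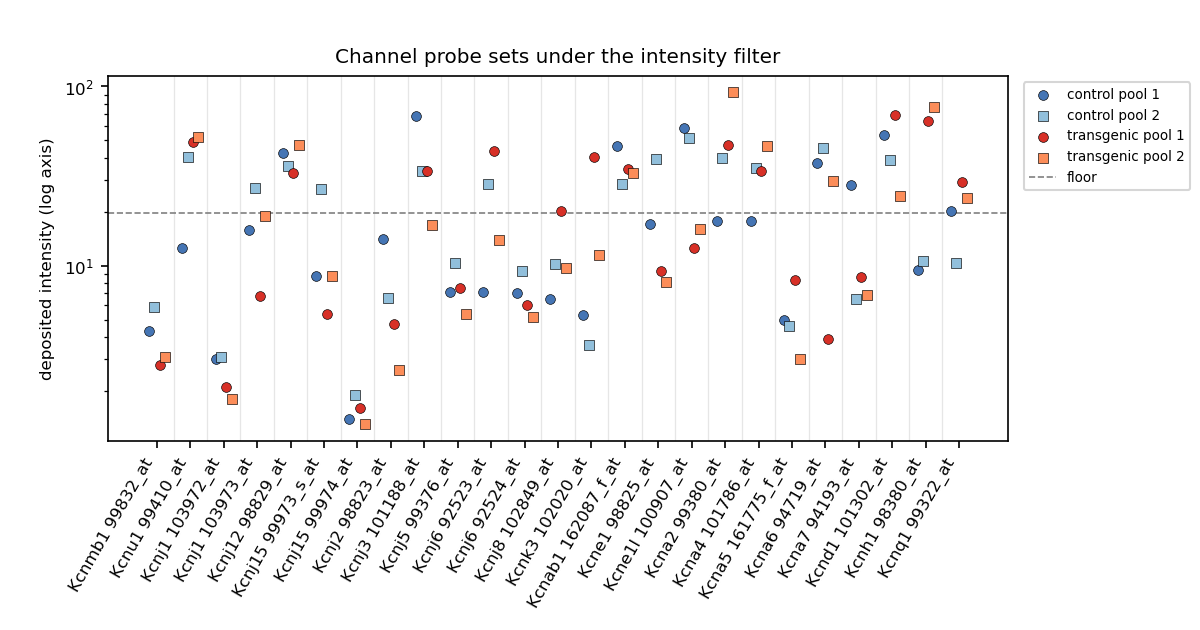
Deposited intensity (log axis) on each array for the 25 channel probe sets under the intensity limit, with blue for control pools, red and orange for transgenic pools and a dashed line at the floor of 19.675. Kcnh1 is at or near 10 in control cortex and above 60 in transgenic cortex, Kcne1l shows the reverse order, and most others scatter around or under the floor.

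The dim members also include relatives of Kcna1. In the RefSeq table Kcna5, Kcna1 and Kcna6 are consecutive protein-coding genes on chromosome 6, and Kcna3 and Kcna2 are consecutive on chromosome 3. Kcna6 read 37.5 and 45.5 in control cortex and 3.9 and 29.8 in transgenic cortex, so both transgenic readings were lower where those of its neighbour Kcna1 were higher. Kcna5 at 102295_at read 40.7 and 74.5 against 64.4 and 73.1 and overlapped. Kcna2, the usual partner of Kcna1 in axonal channels, read 17.7 and 39.8 against 46.9 and 92.9. Both transgenic readings exceeded both control readings, but pools of a group differed by 1.02 (control) and 0.99 (transgenic) on the log2 scale, and it was not tested. Kcna4, an inactivating member, read 17.7 and 34.9 against 33.7 and 46.8, and Kcna7 read between 6.5 and 28.1. The dim probe sets of the A-type subunit Kcnd1, the Kcnq1 accessory subunit Kcne1, Kcnab1 (162087_f_at) and Kcnq1 (99322_at) read between 8.1 and 69.3.

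Genes known to bind, move or regulate these channels were read from a list of 62, of which 38 were tested at their brightest probe set. Of these 3 rose (7.89%, against 5.00% of 5701 genes) and 1 fell (2.63%, against 4.49%). The median log2 change was -0.12 against -0.04 over all genes. The list was chosen with earlier results of these data known, so these shares are not a test of it. Kif5b, a kinesin motor that carries axonal channels, read 111.1 and 156.2 in control cortex and 780.8 and 983.2 in transgenic cortex (log2 change 2.73 ± 0.20 SE, adjusted p = 1.89e-05). Sp1, a factor that binds GC boxes, read 25 and 32.8 against 165.9 and 148.5 (2.45 ± 0.30 SE, adjusted p = 0.000581). In both, the transgenic readings were several-fold above the control readings, and Sp1 passed the intensity limit only through them. Each gene was read by 1 probe set, and a difference in array version cannot be told apart here either.

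Rgs7, which speeds the closing of G protein-gated inward rectifiers, read 365.9 and 392.8 against 544.1 and 666.7 (0.67 ± 0.16 SE, adjusted p = 0.0252). Without transgenic replicate 2 its adjusted p was 0.153, and without the intensity trend 0.0986. Ank3, the scaffold that holds channels at the axon initial segment, read 1027.5 and 1195.8 against 698.3 and 708.0 at 98476_at (-0.66 ± 0.13 SE, adjusted p = 0.0127). Both transgenic readings were lower there, but 98477_s_at gave 0.27 ± 0.16 SE (adjusted p = 0.356), and the call at 98476_at was lost without control replicate 2 (0.0590), transgenic replicate 1 (0.0729) or transgenic replicate 2 (0.0765) and without the intensity trend (0.0861). Stx1a (-0.48, adjusted p = 0.0824), Fyn (0.38, 0.115) and Gng2 (-0.81, 0.126) came next and did not pass. The kinase subunit Csnk2a1 and the G protein Gnao1 fell at probe sets not used for the list, with log2 changes of -1.32 and -1.49 at 104545_at and 104546_g_at and of -1.18 at 100388_at, while their brightest probe sets gave 0.21 and 0.04. Dpp6, a partner of Kcnd2, had 0.02 ± 0.16 SE (adjusted p = 0.964).

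**Figure D5:**
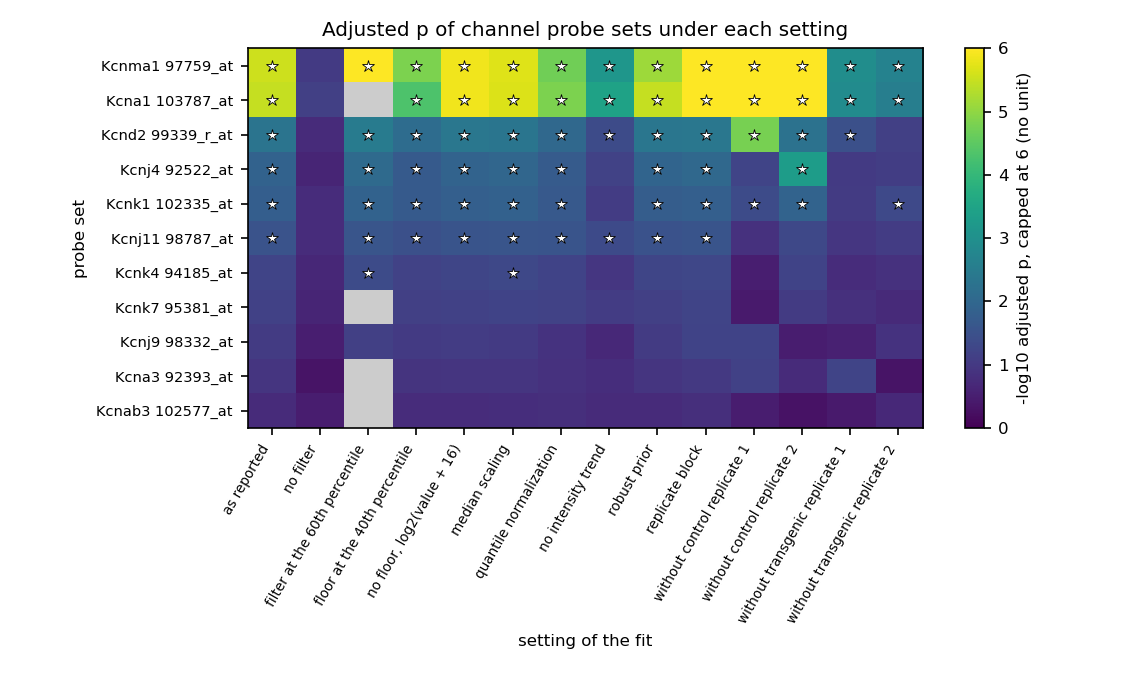
Adjusted p (colour, as -log10, capped at 6) of the 11 tested channel probe sets of smallest p, by rows, under each setting of the fit, by columns, with a star where the adjusted p was under 0.05 and grey where the probe set was not tested. Kcnma1 has a star in every column but the one without the filter. Kcna1 lacks it there and is grey at the 60th-percentile filter, while Kcnj11 has none in any of the 4 columns that leave out a pool.

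The calls differed in how far they held under other settings. Kcnma1 kept a log2 change between 4.09 and 4.67 with any single pool left out. For Kcna1, whose control arrays are both set to the floor, leaving out a control pool moves the log2 change only through the floor. Its log2 change was 4.73 and 4.70 without control replicate 1 or 2, against 4.69, and those fits say nothing about its stability. Without the filter on dim probe sets 48 of 12422 probe sets passed and 0 of the 6 called members did. Their adjusted p-values in that limma fit were 0.0729 for Kcna1, 0.0932 for Kcnma1, 0.170 for Kcnk1, 0.172 for Kcnj11, 0.183 for Kcnd2 and 0.239 for Kcnj4. All 6 were under an unadjusted p of 0.05 there, and their log2 changes are the same in that fit by construction. The 6 were picked by a small p on the same arrays, so this adds no support. The fit without the filter also takes in probe sets at the floor on every array. Their spread is 0 by construction and enters its variance model.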

How the data were processed

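RNA of 4 pools was measured on single-channel arrays, and groups and replicate numbers came from the sample titles. The deposited table holds 1 linear intensity per probe set and array. The unit was read from the values, and no source used here names the tool the authors made it with. The mean between the 2nd and 98th percentiles was 249.5 to 249.6 in each column, so arrays had been scaled before deposit, and no scaling was added. The 66 control probe sets were dropped. Genes were named from the platform's annotation, updated by gene identifier to RefSeq, and no probe positions are given.

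Values were floored at 19.675 (25th percentile), log2-transformed, and tested where the mean log2 value exceeded the 40th percentile (7453 probe sets). The test was limma 3.58.1 in R 4.3.3 (lmFit, eBayes with an intensity trend, two-sided), on the transgenic minus control difference, with p-values adjusted by Benjamini-Hochberg over all tested probe sets and a threshold of 0.05. It had 2 residual and 7.5 prior degrees of freedom, and the script was tested on simulated data. Folds are back-transformed log2 changes, and "at least" marks a lower group at the floor. The number of arrays limits the precision.

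All member genes are named. Those that passed are given in full, with the 3 of smallest p in each class and other probe sets of called genes, and dim ones where both pools of a group were over 2-fold apart from the other group. Every partner gene that passed is named, with the 3 next by p. Alternatives covered the filter, floor, scaling, variance model, replicate block and leaving out each pool. The members and lists were chosen with earlier results of these data known. The count of other probe sets of genes with rises or falls over 4-fold was added after the values were seen.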

Additional observations from a re-analysis of the deposited data

How the results depend on the processing

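The log2 changes of Kcna1, Kcnma1, Kcnd2 (99339_r_at), Kcnj4, Kcnj11 and Kcnk1 kept their sign in every alternative that tested them. With 3 channel probe sets higher and 3 lower as reported, leaving out 1 pool gave 2 to 3 higher and 0 to 2 lower, the 0 arising without transgenic replicate 1 (limma, 7 at an unadjusted p under 0.05). Without the filter on dim probe sets, limma called 0 channel probe sets in either direction (5 higher and 6 lower at an unadjusted p under 0.05) and 0 partner genes (6 and 4). Without the intensity trend 1 channel probe set and 0 partner genes were lower (7 and 5 unadjusted). In the reported limma fit 11 of the 29 tested channel probe sets were under an unadjusted p of 0.05, as were 1811 of all 7453. Leaving out 1 pool gave 2 to 4 partner genes higher and 0 to 1 lower. With the replicate block 2 partner genes were lower, Stx1a joining Ank3, and the channel counts stayed at 3 and 3. The replicate numbers are no evidence of pairing: the difference between pools 1 and 2 correlated at 0.0357 across probe sets between the groups. The block gave 892 calls over all probe sets, against 407 higher and 340 lower as reported. Over all probe sets 395 passed without the intensity trend, 432 and 389 without transgenic replicate 1 or 2, and 647 of 4969 with the filter at the 60th percentile, under which Kcna1 was not tested. With 1 pool left in a group, that pool is assumed to vary like the others.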
